A study of Homo sapiens with 8 samples.

Results

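Altogether 10 genes of lipid droplet storage and lipolysis were followed across all libraries of the series: G0S2, HILPDA, PNPLA2, ABHD5, PNPLA3, PLIN2, PLIN3, DGAT1, DGAT2 and LPIN1. They were chosen by gene symbol, with earlier results of these data known. Each of the 10 symbols matched 1 of the 58302 Ensembl gene identifiers in the tables. The cells were SK-Hep1, an established human line derived from a liver tumour. They were either mock control cells or cells ectopically expressing SLC29A2, the gene of a transporter that equilibrates nucleosides across membranes. Each of the 2 cell types was given a control treatment, sorafenib (an inhibitor of RAF and receptor tyrosine kinases), dipyridamole (an inhibitor of nucleoside transport and of phosphodiesterases) or both drugs, which made 8 libraries of poly(A) RNA with 1 library per condition. The labels used here give no dose, exposure time, promoter for SLC29A2 or clonal origin of the cells.

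A lipid droplet is a store of triacylglycerol and sterol ester enclosed by a phospholipid monolayer with coat proteins of the perilipin family. Storage runs through phosphatidate phosphatases (lipins) and diacylglycerol acyltransferases (DGAT1 and DGAT2). Release starts with adipose triglyceride lipase, the product of PNPLA2, which is activated by ABHD5 (CGI-58) and inhibited by G0S2 and HILPDA. In liver and in tumour cells this balance sets how much fatty acid is kept as a store and how much is freed for membranes, signalling and oxidation.

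In these cells G0S2 fell with sorafenib, PLIN2 and ABHD5 rose with dipyridamole, and the transcript of the lipase itself, PNPLA2, varied by a ratio of 1.3 from highest to lowest library. PLIN2 stood at 81.4 and 85.8 FPKM where both drugs were given, against 25.1 to 39.8 FPKM in the other 6 libraries. FPKM values are fragment numbers divided by gene length and by sequencing depth. No member passed the test for a difference between the cell types.

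The upstream sequences of the 3 members that passed a test are shown because G0S2 followed sorafenib while PLIN2 and ABHD5 followed dipyridamole. They are the bases before the most upstream RefSeq start in the GRCh38.p14 promoter table, without any stretch that is an exon of a protein-coding gene in GENCODE 29, written 5′ to 3′ on the strand of the gene. The windows are chr1:209675162-209675411 (plus strand) for G0S2, chr9:19127577-19127742 (minus strand) for PLIN2 and chr3:43690820-43690869 (plus strand) for ABHD5. Those of PLIN2 and ABHD5 lie inside the GENCODE 29 spans of these genes (19108375 to 19149290 and 43690108 to 43734371). They are therefore not upstream of the outermost annotated start. Capitals mark a match to one of 7 short motifs on either strand.
G0S2: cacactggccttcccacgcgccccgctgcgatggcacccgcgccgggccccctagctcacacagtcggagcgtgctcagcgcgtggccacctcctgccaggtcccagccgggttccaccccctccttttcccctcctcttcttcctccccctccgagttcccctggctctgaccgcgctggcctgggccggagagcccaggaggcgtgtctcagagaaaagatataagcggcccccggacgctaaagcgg
PLIN2: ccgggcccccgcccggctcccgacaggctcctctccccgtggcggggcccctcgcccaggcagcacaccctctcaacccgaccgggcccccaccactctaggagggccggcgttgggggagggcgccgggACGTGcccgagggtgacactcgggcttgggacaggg
ABHD5: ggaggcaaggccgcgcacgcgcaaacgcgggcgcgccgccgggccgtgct
The motifs were TATAAA (the core promoter element), CCAAT (bound by NF-Y), TGACG (core of the cAMP response element) and ACGTG (a form of the hypoxia response element core). The others were AGGTCA (core of nuclear receptor elements), TGANTCA (AP-1) and CCGGAAG (ETS). Other forms of the hypoxia response element core were not searched.

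Over the full 250 bases before its RefSeq start, PLIN2 held ACGTG at 120, 69 and 68 bases before that start, of which the last 2 overlap. It also held TATAAA at 29 bases. Of the 35116 windows in the table, 18.5% held ACGTG and 10.7% held TATAAA. The windows of G0S2 and ABHD5 held none of the 7 motifs. Of the 6 members with a window in the table, PNPLA2 held AGGTCA (12.1% of all windows), PLIN3 held CCAAT (32.0%) and TGACG (21.2%), and LPIN1 held none. TGANTCA (6.6% of all windows) and CCGGAAG (8.5%) were in none of the 6. A match is a description of the letters and was not tested as a binding site.

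The libraries held 14.07 to 16.69 M reads, recovered from the steps in the FPKM values. SLC29A2 itself measured 7.11 to 7.81 FPKM in the control cells and 1477 to 3040 FPKM in the SLC29A2 cells. Non-coding genes took 2.54% and 2.76% of reads in the control cells given dipyridamole and both drugs. They took 1.63% to 1.97% in the other 6 libraries. Dipyridamole results for the members that turn on those 2 control-cell libraries are also given without them. For other genes of lipid storage and use, only the numbers that rose and fell with dipyridamole are given in that way. Of 8 hepatocyte markers 7 stayed below 1 FPKM in every library (ALB, APOA1, APOB, TTR, TF, FGB and HNF4A), and of 7 endothelial markers 4 did (PECAM1, CDH5, KDR and TEK). All 8 adipocyte markers stayed below 1 FPKM, with a summed level of 0.267 to 0.673 FPKM per library, and the leukocyte list summed to 0.325 to 2.26 FPKM. Of 5 epithelial markers 2 stayed below 1 FPKM in every library (EPCAM and CDH1). Through the keratins KRT8, KRT18 and KRT19, the epithelial list summed to 2020 to 2780 FPKM without dipyridamole and 733 to 1080 FPKM with it. The part of this shift in the results for dipyridamole was not tested. Fewer cells of a type and less RNA per cell cannot be told apart in such bulk samples.

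All 10 members passed the filter of a mean of at least 1 FPKM, which left 13899 genes to test. PLIN3 had the highest mean level over the 8 libraries, at 202 ± 61.7 FPKM (SD over 8 conditions), and DGAT2 the lowest, at 2.55 ± 0.770 FPKM. Between them in falling order came G0S2 (114 ± 78.2), DGAT1 (63.9 ± 7.76), PLIN2 (43.6 ± 25.2), PNPLA2 (37.0 ± 3.22), ABHD5 (28.6 ± 11.3), LPIN1 (27.3 ± 7.76), PNPLA3 (10.5 ± 2.83) and HILPDA (8.58 ± 1.59). The order of LPIN1 above PNPLA3 and of HILPDA above DGAT2 held in all 8 libraries, and that of PLIN3 above G0S2 and PNPLA3 above HILPDA in 7. G0S2 exceeded DGAT1 in 5 libraries, PNPLA2 exceeded ABHD5 in 5 and ABHD5 exceeded LPIN1 in 5, so the order of those neighbours changed between conditions. G0S2 exceeded DGAT1 in every library without sorafenib, and ABHD5 exceeded PNPLA2 only in libraries with dipyridamole. DGAT1 exceeded PLIN2 in 6, and PLIN2 exceeded PNPLA2 in 3. Levels of different genes rest on mean transcript lengths, which are short for genes with many partial transcripts, so the order is approximate.

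**Figure D1:**
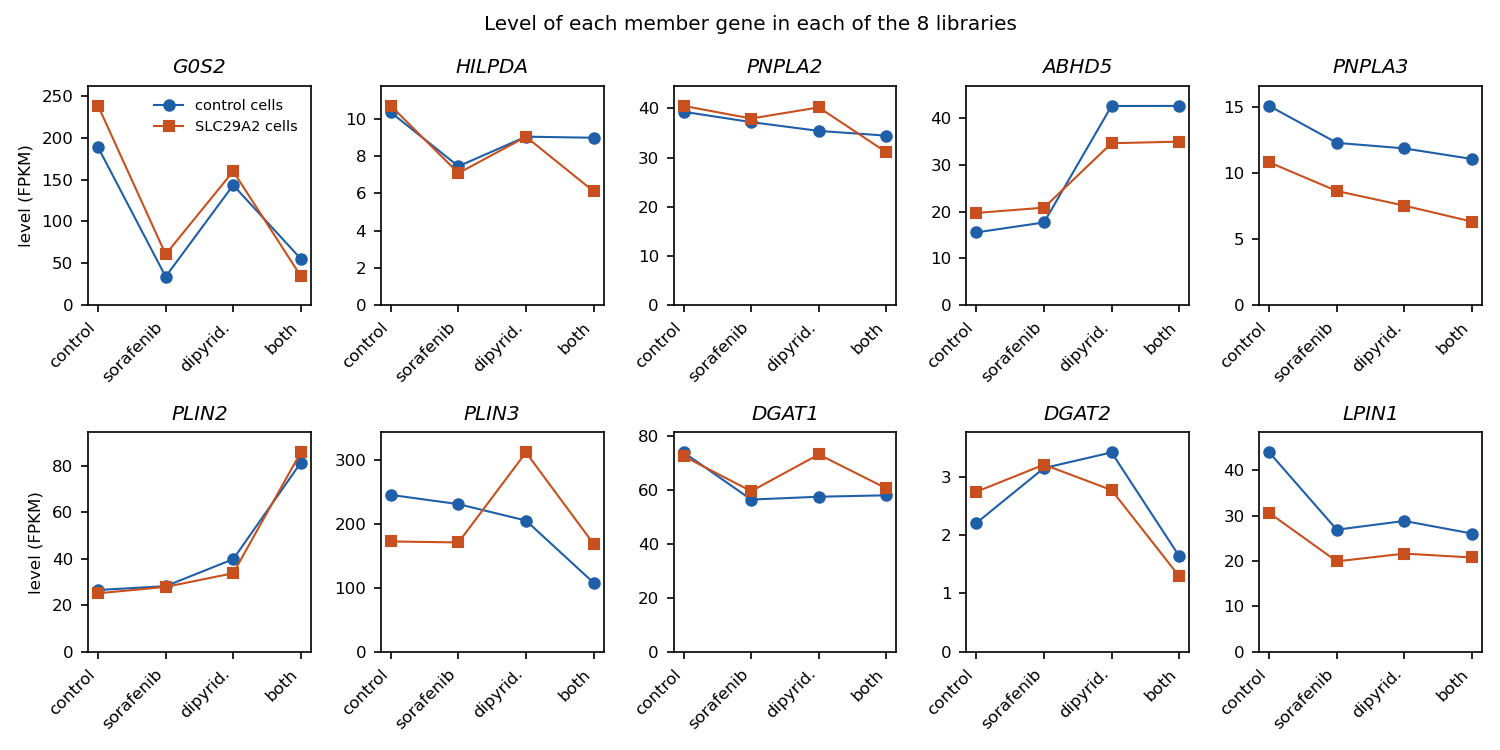
Level of each of the 10 members (y axis, FPKM, starting at 0) in the 8 libraries, by treatment (x axis) and cell type (circles, control cells; squares, SLC29A2 cells); each point is 1 library, lines join the libraries of a cell type and no error bar can be drawn. G0S2 is low in the 4 libraries with sorafenib, ABHD5 is high in the 4 with dipyridamole, and PLIN2 is highest in the 2 with both drugs.

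Among the inhibitors of the lipase, G0S2 (ENSG00000123689; GRCh38 chromosome 1, 209675420 to 209676388, plus strand) fell with sorafenib. In control cells its level was 189 FPKM with the control treatment, 34.0 with sorafenib, 143 with dipyridamole and 55.5 with both drugs. In SLC29A2 cells it was 238, 60.7, 160 and 34.9 FPKM in the same order. The 4 libraries with sorafenib, at 34.0 to 60.7 FPKM, lay wholly below the 4 without it, at 143 to 238 FPKM.

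The difference in G0S2 with minus without sorafenib was -1.98 ± 0.21 on the log2(FPKM + 1) scale (SE; 95% interval -2.45 to -1.51; limma adjusted p = 0.00257), with values of -2.44 to -1.35 in the 4 library pairs. In single pairs the level with the control treatment was 5.54 times that with sorafenib in control cells and 3.92 times in SLC29A2 cells. The call held with each library left out (-2.24 to -1.76; adjusted p up to 0.0175). Of all genes tested, 8.11% passed for sorafenib and 2.17% were lower, and 1 of the 10 members passed, as lower. The split over all genes was 825 higher and 302 lower, or 442 and 487 after median-of-ratios scaling. The rescaling moved the median difference of all genes from 0.089 to -0.019, and G0S2 lay -2.07 from the first of these. Beside this fall, the summed endothelial list was 29.6 to 61.2 FPKM without sorafenib and 9.88 to 16.8 FPKM with it, mainly through ESM1 (8.07 to 55.8 FPKM over the 8 libraries). The summed hepatocyte list was 1.75 to 2.38 FPKM without and 3.71 to 5.64 FPKM with it, mainly through SERPINA1 (1.73 to 5.64 FPKM over the 8 libraries). The other 7 hepatocyte markers stayed below 1 FPKM, with APOB, TTR and FGB at 0 in every library. Mitochondrial genes took 3.71% to 5.74% of reads in the 4 libraries without sorafenib and 1.88% to 3.34% in the 4 with it. The part of these shifts in the G0S2 result was not tested.

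HILPDA (ENSG00000135245; chromosome 7, 128455849 to 128458418, plus strand), a hypoxia-inducible inhibitor of the same lipase, was lower by less and did not pass. Its levels in control cells were 10.3, 7.44, 9.03 and 8.97 FPKM with the control treatment, sorafenib, dipyridamole and both drugs, and 10.7, 7.08, 9.02 and 6.11 FPKM in SLC29A2 cells. The libraries with sorafenib (6.11 to 8.97 FPKM) lay below those without it (9.02 to 10.7 FPKM), by a narrow gap. The sorafenib difference was -0.37 ± 0.14 (limma adjusted p = 0.129), and after median-of-ratios scaling it was -0.47 with an adjusted p of 0.0439. Groups of 4 libraries did not overlap for 2 members (G0S2 and HILPDA) with sorafenib, both lower, beside 2.14% of all genes that were lower and 7.98% in either direction. HILPDA rested on 111 to 190 reads per library.

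Dipyridamole gave differences of -0.26 ± 0.21 for G0S2 and -0.09 ± 0.14 for HILPDA, neither of which passed (limma adjusted p = 0.368 and 0.669). The G0S2 value joined 3 pairs with lower levels under dipyridamole (-0.78 to -0.39) and 1 pair with a higher level, that of control cells given both drugs against sorafenib alone (0.69). Without the control-cell library given both drugs the difference was -0.52 and passed (adjusted p = 0.0366), and without either dipyridamole library of the control cells it was -0.68 (0.0261). With other single libraries left out it was -0.48 to -0.16 and did not pass, and it was -0.11 (0.724) without SLC29A2 cells given both drugs. The difference between the cell types in this effect was -0.83 ± 0.33 (limma unadjusted p = 0.0392, adjusted p = 0.23). It was -0.41 without control cells given both drugs, -0.52 without control cells given sorafenib and -1.24 without control cells given dipyridamole.

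The lipase gene PNPLA2 (ENSG00000177666; chromosome 11, 818902 to 825573, plus strand) ranged from 31.1 to 40.5 FPKM over the 8 libraries, a ratio of 1.3 from highest to lowest. Its sorafenib and dipyridamole differences were both -0.14 ± 0.10 (95% intervals -0.37 to 0.08 and -0.36 to 0.09; limma adjusted p = 0.399 and 0.331). PNPLA2 was lowest, at 31.1 FPKM, in SLC29A2 cells given both drugs.

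ABHD5 (ENSG00000011198; chromosome 3, 43690108 to 43734371, plus strand), the coactivator, rose with dipyridamole. In control cells it measured 15.6 FPKM with the control treatment, 17.7 with sorafenib, 42.6 with dipyridamole and 42.6 with both drugs. In SLC29A2 cells it measured 19.7, 20.8, 34.6 and 34.9 FPKM. The 4 libraries with dipyridamole lay wholly above the 4 without it, whichever other drug was present.

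The ABHD5 rise was 1.03 ± 0.13 (95% interval 0.73 to 1.33; limma adjusted p = 0.000792), with pairs from 0.72 to 1.40, and it passed with each library left out (0.93 to 1.11). Without either dipyridamole library of the control cells the rise was smaller, at 0.75, and passed (limma adjusted p = 0.0129). Sorafenib gave 0.07 ± 0.13 (adjusted p = 0.794), or -0.05 after median-of-ratios scaling. With dipyridamole alone the level was 2.74 times that of the control treatment in control cells and 1.76 times in SLC29A2 cells. That difference between cell types, -0.56 ± 0.16, did not pass (limma unadjusted p = 0.00995, adjusted p = 0.146), and the median of all genes for the same term was -0.139, or 0.044 after rescaling.

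ABHD5 shares 170 exonic bases with ANO10 on the opposite strand, and no label gives the strand setting of the counting. ANO10 went from a mean of 69.8 to 95.5 FPKM with dipyridamole (0.44 ± 0.11, limma adjusted p = 0.0174). PNPLA3 shares 148 exonic bases with SAMM50 and DGAT1 shares 139 with HSF1, which are measured at 19.0 to 24.5 and 111 to 200 FPKM. HSF1 rose by 0.43 ± 0.13 with dipyridamole (adjusted p = 0.0398), and SAMM50 did not pass for either drug (0.512 and 0.752). How reads in the shared bases were assigned was not tested.

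PNPLA3 (ENSG00000100344; chromosome 22, 43923739 to 43964488, plus strand) encodes a droplet-bound lipase and acyltransferase of the PNPLA2 family. It measured 15.1, 12.3, 11.9 and 11.1 FPKM in control cells and 10.8, 8.65, 7.54 and 6.33 FPKM in SLC29A2 cells, in the order control treatment, sorafenib, dipyridamole, both drugs. Each SLC29A2 library was below its control-cell partner, and the cell types did not overlap. The difference between cell types was -0.56 ± 0.12, with 4 pairs from -0.72 to -0.45, but it failed the correction over all genes (limma unadjusted p = 0.000932, adjusted p = 0.965). Groups did not overlap between the cell types for 1 of the 10 members, beside 0.820% of all genes that were lower and 0.950% in either direction, and 0.00719% of all genes passed, which is 1 gene.

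The drug differences of PNPLA3 were -0.22 ± 0.12 for sorafenib and -0.33 ± 0.12 for dipyridamole (limma adjusted p = 0.259 and 0.0575). All 8 drug pairs were lower with the drug than without. With median-of-ratios scaling the dipyridamole difference was -0.42 and passed (adjusted p = 0.0126).

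The coat gene PLIN2 (ENSG00000147872; chromosome 9, 19108375 to 19149290, minus strand) encodes the perilipin that covers droplets in most cells outside fat tissue. Its levels in control cells were 26.6, 28.2, 39.8 and 81.4 FPKM with the control treatment, sorafenib, dipyridamole and both drugs. In SLC29A2 cells they were 25.1, 27.9, 33.8 and 85.8 FPKM. The 4 libraries without dipyridamole lay within 25.1 to 28.2 FPKM, below all 4 with it, and the cell types lay close together under each treatment.

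Dipyridamole raised PLIN2 by 1.02 ± 0.20 (95% interval 0.57 to 1.47; limma adjusted p = 0.00579), with pairs from 0.41 to 1.59. The call held with each library left out (0.85 to 1.19; adjusted p up to 0.0252) and was lost without either dipyridamole library of the control cells, at 1.00 (adjusted p = 0.0714). The sorafenib difference was 0.64 ± 0.20 and did not pass (limma adjusted p = 0.0805). It passed with voom on recovered reads, at 0.71 (0.0378).

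In the library pairs PLIN2 differed more with each drug where the other drug was present. Sorafenib gave 0.08 and 0.14 without dipyridamole in control and SLC29A2 cells, and 1.01 and 1.32 with it. The difference between these responses was 1.05 ± 0.18 (95% interval 0.63 to 1.47; limma unadjusted p = 0.000562), which failed the correction over all genes (adjusted p = 0.166, and 0.144 to 0.451 with a library left out). For this term 0.0863% of all genes passed, which is 12 genes and 0 members. Against the control treatment, PLIN2 with both drugs was 3.06 times as high in control cells and 3.41 times as high in SLC29A2 cells. The same 2 libraries had the lowest mitochondrial shares of reads, at 1.88% and 2.25% against 3.04% to 5.74% in the other 6, and the part of this in the PLIN2 level was not tested.

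PLIN3 (ENSG00000105355; chromosome 19, 4838341 to 4867768, minus strand), a perilipin that moves between the cytosol and nascent droplets, did not follow PLIN2. It measured 246, 231, 206 and 108 FPKM in control cells and 173, 171, 312 and 169 FPKM in SLC29A2 cells, in the same order of treatments. The highest level was in SLC29A2 cells given dipyridamole and the lowest in control cells given both drugs. Its differences were -0.48 ± 0.25 for sorafenib and -0.13 ± 0.25 for dipyridamole (limma adjusted p = 0.254 and 0.724), and the second turned to 0.42 without either dipyridamole library of the control cells. The sorafenib value was -0.23 without control cells given both drugs, -0.24 without SLC29A2 cells given dipyridamole and -0.73 without SLC29A2 cells given the control treatment.

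The dipyridamole response of PLIN3 differed by 1.09 ± 0.35 between SLC29A2 and control cells and failed the correction (limma unadjusted p = 0.0161, adjusted p = 0.168), with pairs of -0.26 and -1.09 in control cells and 0.85 and -0.02 in SLC29A2 cells. The ratio of PLIN2 to PLIN3 levels within a library was 0.752 and 0.508 with both drugs and 0.108 to 0.194 in the other 6 libraries.

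**Figure D2:**
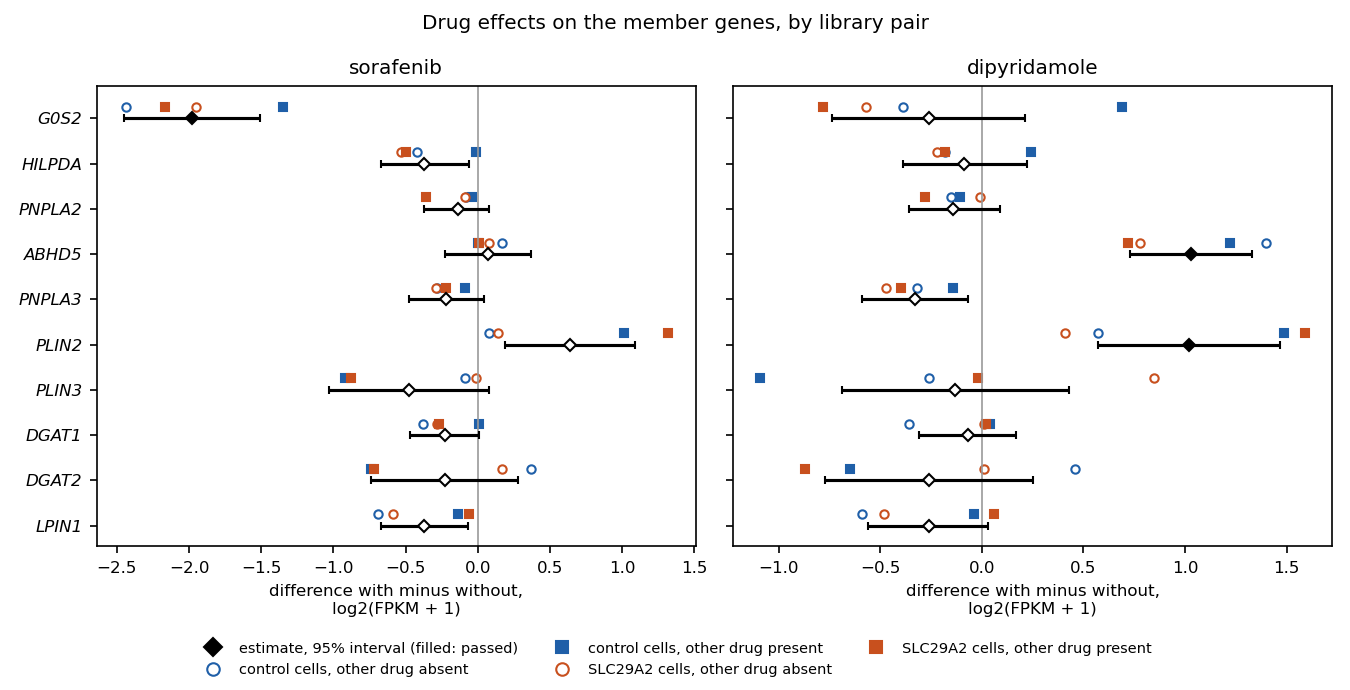
Differences with minus without sorafenib (left) and dipyridamole (right) on the log2(FPKM + 1) scale (x axis) for each member; diamonds are limma estimates with 95% intervals, filled where the adjusted p was under 0.05, and small symbols above them are the 4 library pairs. For PLIN2 the pairs with the other drug present (1.01 and 1.32 for sorafenib) lie apart from those without it (0.08 and 0.14).

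Of the enzymes that complete triacylglycerol synthesis, DGAT1 (ENSG00000185000; chromosome 8, 144314584 to 144326910, minus strand) ranged from 56.4 to 73.9 FPKM. The libraries of 3 conditions stood at 72.4 to 73.9 FPKM, those of both cell types with the control treatment and of SLC29A2 cells with dipyridamole, and the other 5 at 56.4 to 60.5 FPKM. The sorafenib difference was -0.23 ± 0.10 and the dipyridamole difference -0.07 ± 0.10 (limma adjusted p = 0.2 and 0.645).

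DGAT2 (ENSG00000062282; chromosome 11, 75759512 to 75801535, plus strand), the second and unrelated acyltransferase, rested on 40 to 92 reads per library. Its levels were 2.21, 3.15, 3.42 and 1.64 FPKM in control cells and 2.74, 3.21, 2.77 and 1.30 FPKM in SLC29A2 cells. The libraries given both drugs were the lowest, with exact Poisson 95% intervals of 1.20 to 2.19 and 0.925 to 1.76 FPKM, which cover counting error only. With the control treatment the intervals were 1.72 to 2.79 FPKM in control cells and 2.17 to 3.42 FPKM in SLC29A2 cells. The intervals of these 2 treatments thus overlapped in control cells and not in SLC29A2 cells. DGAT2 was higher with sorafenib than without it where dipyridamole was absent (0.37 and 0.17) and lower where it was present (-0.74 and -0.72). That difference of -1.0 ± 0.29 failed the correction (limma unadjusted p = 0.0106, adjusted p = 0.257). The main differences were -0.23 ± 0.22 for sorafenib and -0.26 ± 0.22 for dipyridamole (adjusted p = 0.556 and 0.405), and with a library left out they ranged from -0.42 to -0.06 and from -0.46 to -0.10.

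LPIN1 (ENSG00000134324; chromosome 2, 11677595 to 11827409, plus strand) encodes lipin 1, a phosphatidate phosphatase that also acts as a transcriptional coactivator. It measured 44.0, 26.9, 28.8 and 26.1 FPKM in control cells and 30.6, 19.9, 21.6 and 20.8 FPKM in SLC29A2 cells. The control treatment gave the highest level in each cell type, and the 3 drug treatments lay close together. The differences were -0.37 ± 0.13 for sorafenib, -0.26 ± 0.13 for dipyridamole and -0.41 ± 0.13 between the cell types (limma adjusted p = 0.114, 0.158 and 0.965). The sorafenib response was smaller in size with dipyridamole present (-0.14 and -0.06) than without it (-0.69 and -0.59), a difference of 0.54 ± 0.17 that failed the correction (limma unadjusted p = 0.0148, adjusted p = 0.276).

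For dipyridamole 2 of the 10 members passed, both higher, beside 30.0% of all genes in either direction and 17.5% higher. The split over all genes was 2428 higher and 1745 lower, or 1858 and 2298 after median-of-ratios scaling. Groups of 4 libraries did not overlap for the same 2 members, beside 24.8% of all genes in either direction and 13.0% higher. The median difference over the members was -0.13 for dipyridamole and -0.23 for sorafenib, where all genes had 0.074 and 0.089. For the 3 interaction terms 0 members passed in limma, with 3, 0 and 3 members at an unadjusted p under 0.05 for sorafenib by dipyridamole, cell type by sorafenib and cell type by dipyridamole. Of all 13899 genes tested, 1839, 100 and 2756 had an unadjusted p under 0.05 for these 3 terms in the same order. For the last 2 terms 0 of all genes passed.

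The ratio of G0S2 to PNPLA2 levels within a library followed G0S2. It was 4.79 and 5.88 with the control treatment in control and SLC29A2 cells, 4.05 and 3.98 with dipyridamole, 0.915 and 1.60 with sorafenib, and 1.61 and 1.12 with both drugs. The ratio of ABHD5 to PNPLA2 was 0.396 to 0.549 in the 4 libraries without dipyridamole and 0.861 to 1.24 in the 4 with it. G0S2 exceeded ABHD5 12.1 times in both cell types under the control treatment, and the levels were near equal with both drugs, at ratios of 1.30 and 0.998. These ratios describe transcripts scaled to gene length, not proteins.

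**Figure D3:**
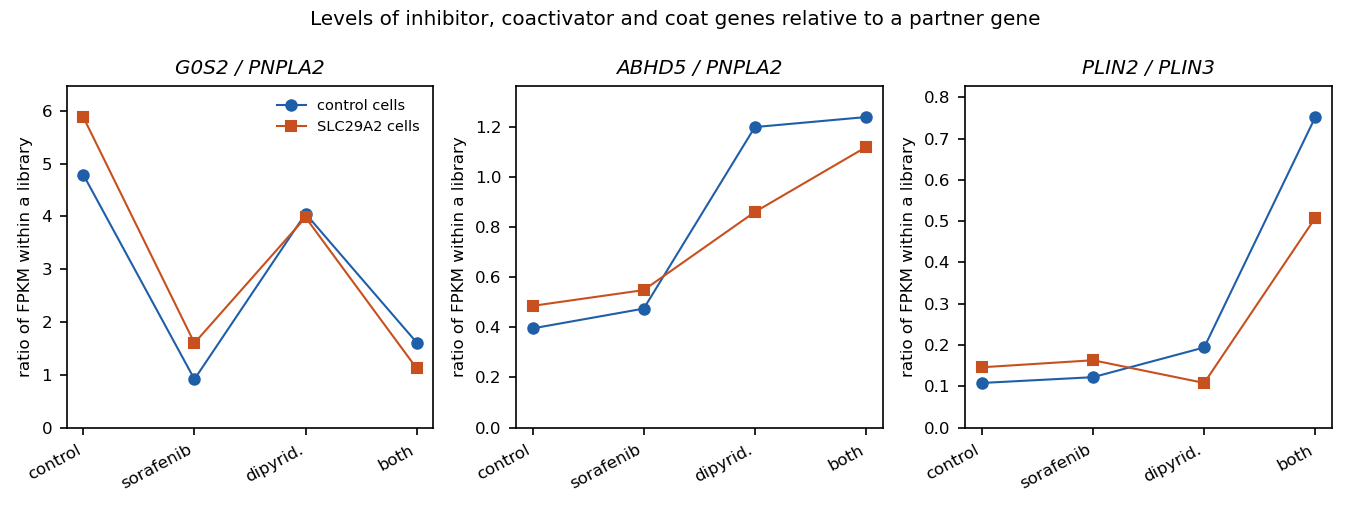
Ratio of FPKM of 2 genes within each library (y axis, starting at 0) by treatment (x axis): G0S2 over PNPLA2, ABHD5 over PNPLA2, and PLIN2 over PLIN3; circles are control cells and squares SLC29A2 cells, 1 library each. The first ratio is at most 1.61 in the 4 libraries with sorafenib, the second at least 0.861 in the 4 with dipyridamole, and the third highest with both drugs.

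Among the members themselves, log2 levels over the 8 libraries were most alike for G0S2 and HILPDA and for PNPLA3 and LPIN1 (Pearson r = 0.87 each), and most opposed for PLIN2 and PNPLA2 (-0.88) and PLIN2 and DGAT2 (-0.80), out of 45 pairs of genes. The genes whose pattern was nearest that of G0S2 were FOS (0.98), DOT1L (0.978), DPH2 (0.976), BCCIP (0.961) and DOCK4 (0.957). For ABHD5 they were VWCE (0.995), SLC2A13 (0.989), NR1D1 (0.988), TTC3 (0.984) and CHM (0.983). For PLIN2 they were RNF114 (0.998), PEA15 (0.993), CCDC88C (0.992), N4BP3 (0.992) and DNAJB2 (0.991). These correlations share the same 8 libraries and describe them only.

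Of 76 other genes of lipid storage and use, 51 passed the filter on low levels. For sorafenib 2 rose and 2 fell, a share near the 8.11% of all genes that passed, so the count is not a result about these genes. LDAF1, which encodes a partner of seipin in droplet formation, rose from a mean of 13.3 ± 4.85 to 35.8 ± 22.6 FPKM (SD, n = 4 libraries each; 1.19 ± 0.18, limma adjusted p = 0.00821). EPAS1, which encodes HIF-2 alpha, rose by 0.72 ± 0.11 (0.00778). ANGPTL4, an inhibitor of lipoprotein lipase, fell by 2.47 ± 0.13 (0.000222), from 74.9 ± 4.75 to 13.1 ± 3.92 FPKM, and AGPAT5, a lysophosphatidic acid acyltransferase, fell by 0.57 ± 0.12 (0.0285), a call lost for 6 of the 8 libraries when that library was left out (adjusted p up to 0.102). Of these 4 genes, ANGPTL4 alone passed without either dipyridamole library of the control cells, where EPAS1 (0.0513), AGPAT5 (0.0506) and LDAF1 (0.0684) missed the threshold.

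For dipyridamole 14 of the 51 rose and 6 fell, or 10 and 6 after median-of-ratios scaling, beside 30.0% of all genes that passed and 17.5% that were higher. EPAS1 rose most, from 13.2 ± 4.53 to 61.7 ± 20.4 FPKM (2.14 ± 0.11, limma adjusted p = 1.54e-05). LDAF1 rose by 1.29 ± 0.18 (0.0011), the fatty acid transport gene SLC27A1 by 1.21 ± 0.19 (0.00227) and PPARA, the nuclear receptor that drives fatty acid oxidation genes, by 1.03 ± 0.13 (0.000654). HSD17B11, a droplet-associated dehydrogenase, fell by 0.72 ± 0.11 (0.00204), the lysosomal lipase LIPA by 0.62 ± 0.12 (0.00503), FABP5, a fatty acid carrier, by 0.53 ± 0.10 (0.00571) and AGPAT5 by 0.53 ± 0.12 (0.012).

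By role, dipyridamole raised 2 and lowered 1 of 5 droplet coat and formation genes, and raised 3 and lowered 1 of 10 lipases and hydrolases. It raised 2 and lowered 1 of 11 genes of glycerolipid and sterol ester synthesis, and raised 2 and lowered 2 of 9 genes of fatty acid uptake and activation. Of 10 oxidation genes 3 rose, and of 6 regulators and related targets 2 rose and 1 fell. These small counts stand beside the same 30.0% of all genes, and no difference between roles was tested. The median over the 51 genes was 0.02, against 0.074 for all genes. Without either dipyridamole library of the control cells 6 rose and 6 fell. With a single library left out the total was 10 to 17, and it was 10, 11 and 12 without control cells given sorafenib, control cells given both drugs and SLC29A2 cells given sorafenib.

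**Figure D4:**
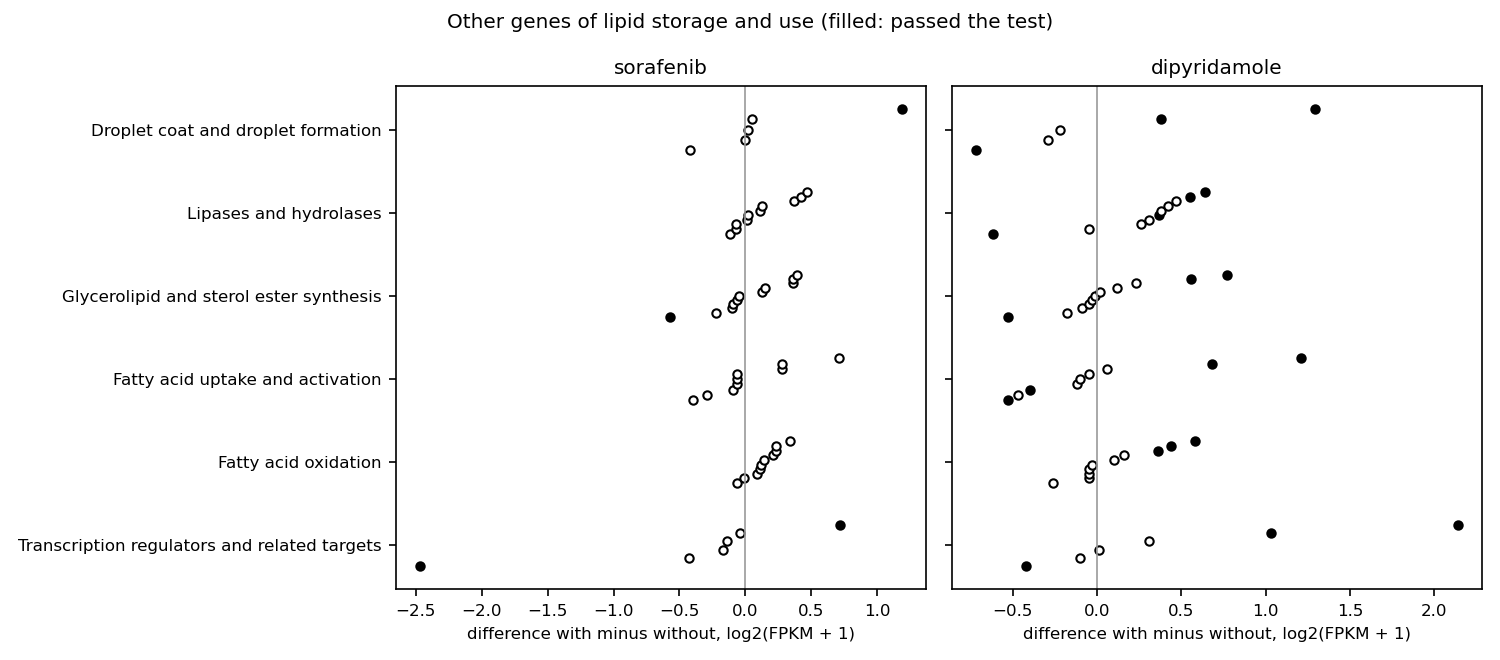
Differences with minus without sorafenib (left) and dipyridamole (right) on the log2(FPKM + 1) scale (x axis) for the 51 other genes of lipid storage and use that were tested, by role (y axis); each point is 1 gene, filled where the limma adjusted p was under 0.05. For sorafenib 4 points are filled and for dipyridamole 20, with EPAS1 the farthest right at 2.14.

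Between the cell types 0 of the 10 members and 0 of the 51 other genes passed in limma, with 2 and 3 at an unadjusted p under 0.05. The 2 members were PNPLA3 and LPIN1. Of all 13899 genes tested, 546 had an unadjusted p under 0.05 in limma for the cell type. The other 8 members had differences of -0.13 to 0.16, with 95% intervals that together spanned -0.56 to 0.64.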

How the data were processed

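The authors deposited 1 table of FPKM per library. Per the submitters' processing notes, the tools were edgeR, HTSeq 0.6.1 and TopHat2 2.0 and the build GRCh38.p12, with no roles stated; scaling and strand settings were not stated. Each table had 58310 lines, 8 of them without a gene identifier, which were left out. Symbols and positions came from GENCODE 29 and a gene name table and matched 58039 genes. FPKM times the rounded mean transcript length fell on whole multiples of 1 read for 94.39% to 94.70% of values below 500 reads (tolerance 0.01), and these reads gave the depths. For ABHD5 it fell 0.2 to 0.4 of a read off a whole number in every library, so the length and recovered reads used for ABHD5 are uncertain.

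Genes that averaged 1 FPKM or more were tested as log2(FPKM + 1), which understates changes of low genes. The additive model in limma 3.58.1 (R 4.3.3; trended variances, two-sided, Benjamini-Hochberg over 13899 genes, threshold 0.05) held cell type, sorafenib and dipyridamole; interactions were added singly. Each main effect rests on 4 library pairs, so p-values measure the spread between these libraries, interactions included. The fit was also run on simulated data with independent noise and no interactions. That setting is simpler than these data, so the run does not measure the error of the fit here. The members, gene lists and tests were chosen with earlier results of these data known. Named besides the members were up to 4 pathway genes per direction and drug, by size among those that passed, and the 5 genes most correlated with each of the 3 members with the largest passing change. Alternatives were a pseudocount of 0.1, no filter, size factors, all pairwise interactions, voom on recovered reads, and leaving out libraries.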

Additional observations from a re-analysis of the deposited data

Results flagged for a closer look

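DGAT2 was higher with sorafenib in both cell types where dipyridamole was absent (0.37 and 0.17 on the log2(FPKM + 1) scale) and lower in both where it was present (-0.74 and -0.72). The difference of these responses was -1.0 ± 0.29 (SE), with an unadjusted p of 0.0106 and an adjusted p of 0.257 in limma. It rested on 40 to 92 reads per library and was singled out because the directions were opposite in every library pair.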

How the results depend on the processing

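No paired analysis was possible by replicate number because each condition has 1 library and the labels give none; libraries matched on cell type and the other drug were compared through those terms of the model. G0S2 kept its fall with sorafenib, and ABHD5 its rise with dipyridamole, in every setting tried. For sorafenib 1 member passed with each library left out, and 2 with size factors (G0S2 and HILPDA), 2 with voom (G0S2 and PLIN2) and 6 with all pairwise interactions, where only 1 residual degree of freedom is left. For dipyridamole 2 to 3 passed with a library left out and 4 with all pairwise interactions. For the cell type 0 passed in each setting. Of the other pathway genes, sorafenib called 2 with no filter, 17 with all pairwise interactions, 1 without either dipyridamole library of the control cells and 3 to 4 with a library left out, and dipyridamole called 12, 29, 12 and 10 to 17. Over all genes, sorafenib called 136 with no filter, 4839 with all pairwise interactions, 301 without the same libraries and 272 to 914 with 1 left out, and dipyridamole 2622, 7411, 3168 and 2926 to 3641. The 12 calls for sorafenib by dipyridamole became 0 with a pseudocount of 0.1, 19 with size factors and 0 to 2 with a library left out.

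Size factors turned ABHD5 to -0.05 for sorafenib, and PLIN2, DGAT2 and ABHD5 to 0.03, 0.01 and 0.08 for cell type. Leaving out both of those libraries turned PLIN3 to 0.42 and DGAT1 to 0.02 for dipyridamole, and PLIN3, DGAT2 and ABHD5 to -0.47, 0.12 and 0.27 for cell type. With 1 library left out, ranges crossed 0 for sorafenib in ABHD5 (-0.03 to 0.15), for dipyridamole in PLIN3 (-0.38 to 0.12) and DGAT1 (-0.11 to 0.01), and for cell type in G0S2 (-0.05 to 0.42), PNPLA2 (-0.03 to 0.08), PLIN2 (-0.23 to 0.11), PLIN3 (-0.17 to 0.33), DGAT2 (-0.24 to 0.12) and ABHD5 (-0.10 to 0.08). None of these values passed in the fit as reported, and the cause of each turn was not tested. Depth limits DGAT2 most, where 40 to 92 reads leave counting intervals wider than most of its differences.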
